A study of Mus musculus with 10 samples.

Results

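The genes described here are 9 mouse genes that work in or around the lysosome. They are the cathepsin genes *Ctss*, *Ctsd*, *Ctsb*, *Ctsz* and *Ctsl*, the legumain gene *Lgmn*, the hexosaminidase subunit gene *Hexa*, the cystatin C gene *Cst3* and the macrosialin gene *Cd68*. They were chosen by name, with earlier results of these data known but without a threshold on any measured value. They make up 9 of the 24453 genes counted. The libraries came from intratelencephalic projection neurons (IT-PNs, cortical neurons whose axons stay within the telencephalon) of layer 5 of primary motor cortex (M1). The 5 animals were male mice hemizygous for (Zfp312-EGFP)CO61GsatMmnc, the *Fezf2-Gfp* reporter, in which regulatory elements of *Fezf2* drive GFP. All animals received a retrograde tracer, cholera toxin subunit B carrying Alexa 647 (CTB), in left M1 at postnatal day 23 to 25, and cells of right M1 were sorted at postnatal day 28 to 32. *Fezf2+ve* IT-PNs were positive for GFP and CTB, *Fezf2−ve* IT-PNs for CTB only, and each animal gave 1 library of each type, so that there were 5 pairs and 10 libraries, numbered by animal. A type is therefore defined by reporter fluorescence and tracer uptake, and no other treatment separated the types. Per the labels, the mean number of cells sorted was 11280 for *Fezf2+ve* and 2688 for *Fezf2−ve* IT-PNs, and the text of the paper gives another mean for the latter.

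Lysosomes are acidic compartments in which proteins, glycans and lipids are broken down. Cathepsins are their main proteases, and most are made as inactive precursors that are cut in the acidic lumen, in some cases by legumain. Hexosaminidases remove terminal N-acetylhexosamines from glycolipids and glycoproteins, and loss of the alpha subunit in neurons leads to storage of the ganglioside GM2. All cells hold lysosomes. In brain, cathepsin S and macrosialin are best known from microglia, whereas cathepsin D and cathepsin B are also used by neurons.

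Gene reads numbered 107643 to 203379 per *Fezf2+ve* library and 89138 to 217738 per *Fezf2−ve* library. At this depth 3 reads, taken as the floor of detection, were worth 13.8 to 33.7 CPM (reads scaled to the same library total) in a single library. The reads came from PCR without molecular identifiers, so floors and counting intervals cover counting error only. Levels are given as log2(CPM + 1) after scaling by the trimmed mean of M values (TMM), and a positive log2 fold change means a higher level in *Fezf2−ve* IT-PNs.

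The labelled cell type was first compared with its markers. Of 16 neuronal and projection neuron markers, 10 passed the filter (at least 10 CPM in at least 2 libraries), 0 of them had an unadjusted p under 0.05 in either direction, and their median log2 fold change was -0.97. *Nefl* had 0 reads in the 10 libraries, *Tubb3* had 0 reads in *Fezf2+ve* and 1 read in *Fezf2−ve* libraries, and *Slc17a7*, which marks cortical glutamatergic neurons, had 7 and 4 reads. The summed TMM-scaled level of the neuronal markers was 233 to 1017 CPM in *Fezf2+ve* and 133 to 2824 CPM in *Fezf2−ve* libraries, so the ranges overlapped, and it was lower in *Fezf2−ve* in 4 of 5 animals and higher in animal 3. *Camk2a* had the most reads of them, and 529 of its 545 *Fezf2−ve* reads came from animal 3. *Fezf2* itself had 1 read in all libraries, so the label of the types could not be checked by it at this depth. *Nefl*, *Tubb3* and *Slc17a7* were thus absent or near the floor in libraries of both types. Of the 16 markers, 15 had at least 1 read, so these low genes do not stand for the whole list.

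Of the 9 lysosomal genes, 8 passed the filter and were tested, and *Cd68* was not tested. *Ctsz* passed through *Fezf2−ve* libraries only, with at least 10 CPM in 0 *Fezf2+ve* and 3 *Fezf2−ve* libraries, and *Hexa* reached that level in 1 *Fezf2+ve* and 5 *Fezf2−ve* libraries. A gene that passes only through the type where it is high had to differ, so the counts over the 8 tested genes are a description and no support for a difference. This limit also applies to the shares of all tested genes and to every further gene list that holds such genes. In edgeR's quasi-likelihood test with a term for the animal, the block, 0 of the 8 had a false discovery rate (FDR) at or below 0.1, beside 0.0% of the 7409 genes tested. An unadjusted p under 0.05 with a higher level in *Fezf2−ve* IT-PNs was found for 5 of the 8, namely *Ctss*, *Cst3*, *Lgmn*, *Hexa* and *Ctsd*, beside 2.27% of all tested genes, and none of the 8 had one in the other direction (1.62% of all tested genes). Without animal 2 this number was 2, and it was 3 without animal 1 and 3 without animal 3. The level was higher in the *Fezf2−ve* library of 5 of 5 animals for 4 of the 8 genes (2.42% of all tested genes). For 3 genes, *Ctss*, *Cst3* and *Lgmn*, every *Fezf2−ve* library lay above every *Fezf2+ve* library, which held for 0.945% of all tested genes. The median log2 fold change of the 8 genes was 3.29, and that of all 7409 tested genes was 0.16, or 0.13 when the 414 tested genes with 0 reads in one type were set to their bound against a floor of 3 reads per type.

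**Figure D1:**
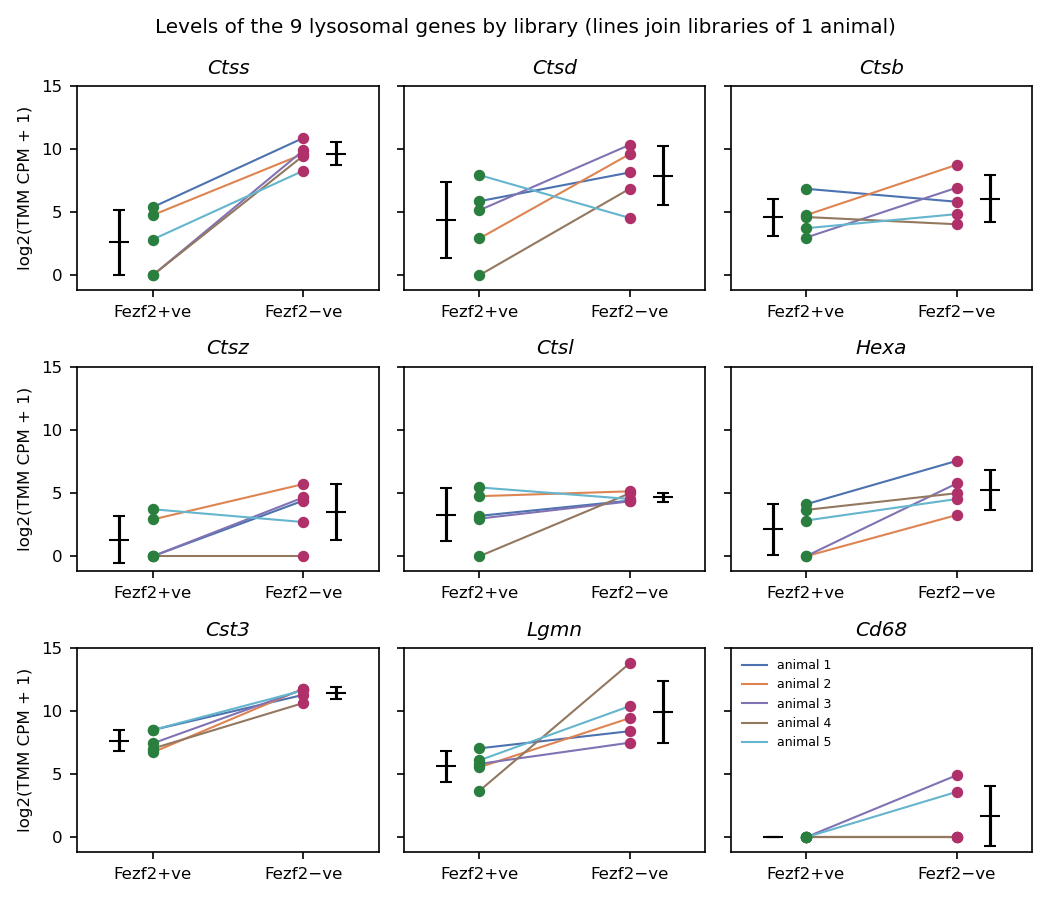
Level of each of the 9 lysosomal genes as log2(TMM CPM + 1) in the *Fezf2+ve* (green) and *Fezf2−ve* (magenta) library of each animal; lines join the libraries of 1 animal, and bars are the mean and SD of 5 libraries. The types did not overlap for *Ctss*, *Cst3* and *Lgmn*, and *Cd68* was at 0 in all 5 *Fezf2+ve* libraries.

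*Ctss* encodes cathepsin S, a cysteine protease that stays active at neutral pH and trims the invariant chain of MHC class II. The gene lies on the plus strand at chr3:95526786-95556403 (GRCm38, protein-coding in GENCODE). It had 5, 4, 0, 0 and 1 reads in *Fezf2+ve* libraries 1 to 5 and 372, 91, 196, 92 and 56 reads in *Fezf2−ve* libraries. In TMM-scaled terms the highest *Fezf2+ve* library reached 41.0 CPM and the lowest *Fezf2−ve* library 311 CPM, so the types were well apart in every animal. The medians of the 5 libraries were 6.13 CPM in *Fezf2+ve* and 784 CPM in *Fezf2−ve*. The fitted difference was a 77.4-fold higher expression in *Fezf2−ve* IT-PNs (log2 fold change 6.28, standard error 1.45, edgeR with the block, adjusted p = 0.993 by Benjamini-Hochberg over all tested genes). An exact permutation of the 5 paired levels (two-sided) gave p = 0.0625, the smallest that 5 pairs allow. Without the block the adjusted p was 0.0931, and with DESeq2 and the block it was 8.8e-05, so the call depends on the model. The log2 fold change ranged from 5.82 (without animal 3) to 6.90 (without animal 2).

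The stretch of the *Ctss* promoter that ends just inside the transcript is shown because *Ctss* was the member with the largest fitted fold change, and because it was the only one of the 8 members with an entry in the promoter table whose window held the letters searched for as a PU.1 site, GAGGAAGT. PU.1 is an ETS factor of myeloid cells. The sequence is that of RefSeq on GRCm38.p6, chr3:95526692-95526791, plus strand, written 5′ to 3′. The capitals mark the match, which is on the opposite strand and here reads as its reverse complement:
*Ctss*: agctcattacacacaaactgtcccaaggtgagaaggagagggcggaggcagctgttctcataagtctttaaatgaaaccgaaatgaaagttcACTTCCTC
The same letters, searched on both strands from 250 bases before to 50 bases after the start, were present in 3.20% of the 32851 promoters in the table. The match is a description of letters and does not show that a factor binds there.

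*Ctsd* encodes cathepsin D, the main aspartic protease of lysosomes, which neurons depend on. It lies on the minus strand at chr7:142375911-142388038. Reads numbered 7, 1, 5, 0 and 40 in *Fezf2+ve* libraries 1 to 5, and in *Fezf2−ve* libraries 56, 91, 268, 15 and 4. Animals 1 to 4 had more *Ctsd* in the *Fezf2−ve* library and animal 5 had less, and the types overlapped. The fitted difference of *Ctsd* was 3.76 on the log2 scale (standard error 1.79, adjusted p = 0.998 by edgeR with Benjamini-Hochberg adjustment), and it went from 2.93 without animal 2 to 5.01 without animal 5. The exact permutation p of the paired levels was 0.1875 (two-sided). DESeq2 gave an adjusted p of 0.0814 and so called it at the threshold of 0.1. Of its windows of 50 transcript bases, 32.4% also occur in the annotated gene *Gm49369*, so part of its reads cannot be assigned with certainty.

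The promoter of *Ctsd* is shown because it held 2 matches to the E-box CACGTG, which forms the middle of the CLEAR element, the motif known from promoters of lysosomal genes and bound by TFEB and its relatives. It spans the 250 bases before the RefSeq start, from RefSeq on GRCm38.p6, chr7:142387828-142388077, minus strand, 5′ to 3′, with both E-boxes in capitals:
*Ctsd*: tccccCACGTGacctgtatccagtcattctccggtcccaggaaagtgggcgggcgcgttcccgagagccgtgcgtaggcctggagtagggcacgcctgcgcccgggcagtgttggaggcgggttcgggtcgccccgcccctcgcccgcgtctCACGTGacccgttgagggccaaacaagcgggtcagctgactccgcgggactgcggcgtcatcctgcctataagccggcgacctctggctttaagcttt
RefSeq starts the transcript inside the GENCODE span given above, so the E-box nearer the RefSeq start lies within that span and the farther one outside it. The CLEAR element was searched as its core TCACGTG with G before it and AC after it, and every core contains the E-box, so these 3 searches overlap. On both strands, the full element was present in 0 of the 8 members with a promoter entry and in 0.326% of all promoters. The core was present in 2 members, *Ctsd* and *Lgmn*, and in 3.77% of promoters, and the E-box in 3 members, *Ctsd*, *Ctsl* and *Lgmn*, and in 7.15%. *Lgmn* has 2 entries in the table, and its matches lie in only 1 of them. *Ctsb* has no entry.

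*Ctsb* encodes cathepsin B, a cysteine protease that also acts as a carboxypeptidase (chr14:63122462-63145923, plus strand). It had 14, 4, 1, 2 and 2 reads in *Fezf2+ve* and 11, 50, 25, 2 and 5 reads in *Fezf2−ve* libraries 1 to 5. The *Fezf2−ve* library was higher in 3 of 5 animals, and 53.8% of its *Fezf2−ve* reads came from animal 2. The log2 fold change was 1.49 (standard error 1.32, exact permutation p = 0.3125 for the paired levels, two-sided), within the spread between animals, and it was 0.74 without animal 2, 0.82 without animal 3 and 2.30 without animal 1. *Ctsb* overlaps *Fdft1* on the opposite strand, which had 37 reads over the 10 libraries, and reads from the shared stretch could not be told apart because the use of strand is not stated.

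*Ctsz*, the gene of the carboxypeptidase cathepsin Z (chr2:174427493-174439039, minus strand), had 0, 1, 0, 0 and 2 reads in *Fezf2+ve* and 4, 6, 5, 0 and 1 reads in *Fezf2−ve* libraries. With 3 reads against 16, the ratio of pooled CPM was 4.36, with a 95% counting interval of 1.25 to 23.3 (exact binomial) that leaves out the spread between animals. The *Fezf2−ve* level exceeded the *Fezf2+ve* level in 3 of 5 animals (log2 fold change 2.21, standard error 1.66, exact permutation p = 0.25 for the paired levels, two-sided), and the log2 fold change was 1.70 without animal 3 and 3.56 without animal 5. Its end overlaps *Nelfcd* on the other strand, which had 2 reads in all.

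*Ctsl* encodes cathepsin L, a strong endopeptidase that processes other lysosomal enzymes (chr13:64359337-64370890, minus strand). Reads numbered 1, 4, 1, 0 and 7 in *Fezf2+ve* libraries and 4 in each of the 5 *Fezf2−ve* libraries. After scaling this was 19.4 to 34.5 CPM in *Fezf2−ve*, inside the *Fezf2+ve* range of 0 to 42.9 CPM. Of the tested members it had the smallest fold change (log2 0.90, standard error 1.16, exact permutation p = 0.1875 for the paired levels, two-sided), below its standard error, and it was 0.49 without animal 4 and 1.56 without animal 5. Of its transcript windows, 6.46% also occur in other genes.

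*Lgmn* encodes legumain, the asparaginyl endopeptidase that cuts cathepsin precursors (chr12:102394084-102439813, minus strand). It had 16, 7, 8, 1 and 11 reads in *Fezf2+ve* libraries 1 to 5 and 67, 81, 37, 1852 and 243 reads in *Fezf2−ve* libraries. The *Fezf2−ve* library of animal 4 alone held 81.2% of the *Fezf2−ve* reads, at 14335 CPM after scaling, where the other 4 lay far below it. Even so, the lowest *Fezf2−ve* library (180 CPM) was above the highest *Fezf2+ve* library (131 CPM). The fit gave *Lgmn* a log2 fold change of 3.69 (standard error 1.50, adjusted p = 0.998 by edgeR with Benjamini-Hochberg adjustment) with all animals, 2.85 without animal 4 and 4.46 without animal 1. It was 5.74 without the block, where the adjusted p was 0.0931, and DESeq2 with the block gave an adjusted p of 0.0581. The paired levels gave p = 0.0625 in the exact permutation test (two-sided), the smallest possible.

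*Hexa* encodes the alpha subunit of hexosaminidase A (chr9:59539540-59565109, plus strand). In *Fezf2+ve* libraries it had 2, 0, 0, 1 and 1 reads, and in *Fezf2−ve* libraries 37, 1, 11, 4 and 4, so that only animal 1 and animal 3 had more than 4 reads in any library. The *Fezf2−ve* library was the higher one in all 5 pairs, but the types overlapped. The fitted log2 difference of *Hexa* was 2.89 (standard error 1.32, adjusted p = 0.998 by edgeR with Benjamini-Hochberg adjustment), and DESeq2 assigned no adjusted p to it. Animal 1 gave 64.9% of its *Fezf2−ve* reads, and the log2 fold change without that animal was 2.70, within a range of 2.43 (without animal 3) to 3.38 (without animal 4). *Tmem202*, which overlaps the start of *Hexa* on the other strand, had 3 reads over the 10 libraries.

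*Cst3* encodes cystatin C, a secreted inhibitor of cysteine cathepsins (chr2:148871722-148875692, minus strand). It had the most reads of the 9 genes: 44, 16, 25, 11 and 59 in *Fezf2+ve* libraries 1 to 5 and 493, 408, 694, 206 and 576 in *Fezf2−ve* libraries. No *Fezf2−ve* library gave more than 29.2% of its *Fezf2−ve* reads. The mean level ± SD of 5 libraries was 7.64 ± 0.83 for *Fezf2+ve* and 11.41 ± 0.47 for *Fezf2−ve* IT-PNs. The fitted difference was 13.6-fold (log2 fold change 3.77, standard error 1.17, adjusted p = 0.998 by edgeR with Benjamini-Hochberg adjustment), and it stayed between 3.48 and 4.07 on the log2 scale with each animal left out in turn. DESeq2 with the block called it (adjusted p = 0.00251), and edgeR without the block gave an adjusted p of 0.103, which is above the threshold of 0.1 and no call. The paired levels differed by 3.78 on the log2 scale (exact permutation p = 0.0625, two-sided, the smallest possible).

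*Cd68* encodes macrosialin, a heavily glycosylated membrane protein of late endosomes and lysosomes in phagocytes (chr11:69664213-69666153, minus strand). No *Fezf2+ve* library had a read, and among the *Fezf2−ve* libraries animal 3 had 6 reads and animal 5 had 2. Against a floor of 3 reads over the 5 *Fezf2+ve* libraries its *Fezf2−ve* level was at least 2.18-fold higher, a bound that describes those 2 libraries more than the type. The filter left it out of the fit.

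**Figure D2:**
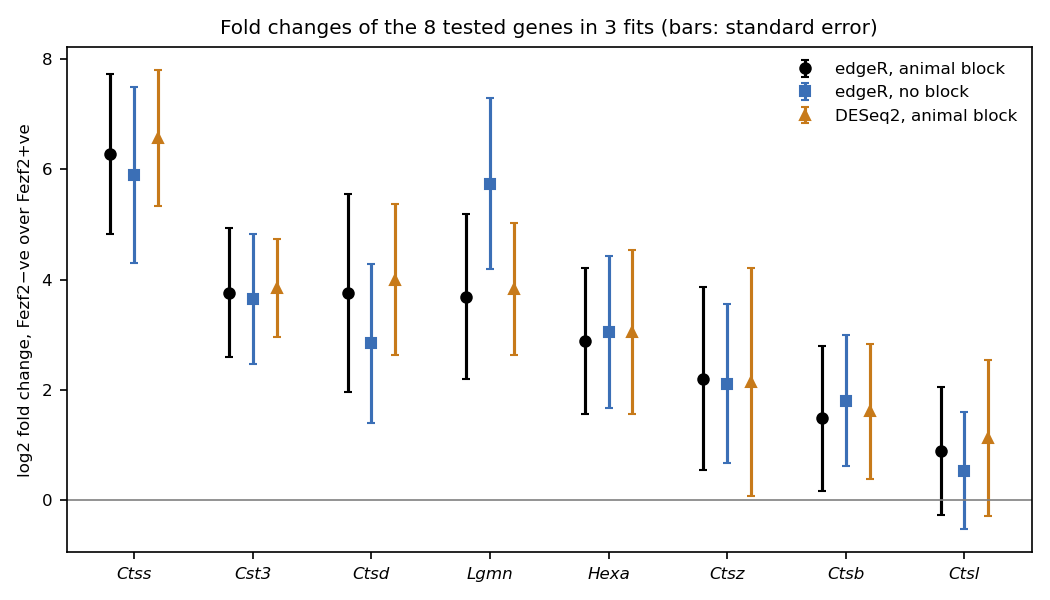
Fitted log2 fold change (*Fezf2−ve* over *Fezf2+ve*) of the 8 tested lysosomal genes with edgeR and the animal block (circles), edgeR without the block (squares) and DESeq2 with the block (triangles); bars are standard errors. The order runs from *Ctss* (6.28 with the block) to *Ctsl* (0.90), and *Lgmn* moved most without the block (3.69 to 5.74).

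In order of fitted fold change the members ran *Ctss*, *Cst3*, *Ctsd*, *Lgmn*, *Hexa*, *Ctsz*, *Ctsb* and *Ctsl*. From *Cst3* to *Ctsl* each gene differed from its neighbour by less than their standard errors, so their order is not resolved. Without the block 2 of the 8 members, *Ctss* and *Lgmn*, had an FDR at or below 0.1 (2.15% of all tested genes were called higher in *Fezf2−ve* in that fit). DESeq2 with the block called 4, *Ctss*, *Cst3*, *Lgmn* and *Ctsd*, beside 55 genes called higher in *Fezf2−ve* (0.742% of all tested genes). DESeq2 gave an adjusted p to only 1664 of the 7409 tested genes, and to none of *Hexa*, *Ctsz* and *Ctsl*. The share of 0.742% is therefore of more genes than DESeq2 could call. The 0 calls of edgeR with the block do not show that levels were equal, and the calls of DESeq2 can include genes that do not differ.

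Summed over the 9 genes, the TMM-scaled level was 730, 242, 276, 177 and 754 CPM in *Fezf2+ve* libraries 1 to 5 and 5292, 6308, 6057, 16835 and 4971 CPM in *Fezf2−ve* libraries. Every *Fezf2−ve* library was thus above every *Fezf2+ve* library, and the ratio within an animal was 6.60 to 95.4 with a median of 21.9. The largest ratio was that of animal 4, and without *Lgmn* it was 15.2 there and 5.28 to 28.6 over the 5 animals. Per read on the ERCC spike-in, a set of synthetic RNAs added to each RNA sample, the ratio within an animal was 6.39 to 138. In these bulk libraries, fewer cells of a type that holds these transcripts and less RNA per cell cannot be told apart.

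Markers of other cell types were set beside these values. Of 22 microglial markers, none of them a member, 21 were tested, 13 had an unadjusted p under 0.05 with a higher level in *Fezf2−ve* IT-PNs and 0 had one in the other direction, and their median log2 fold change was 3.75. With the block 0 of them had an FDR at or below 0.1, 10 were called without the block and 10 by DESeq2. For 13 of the 21 the types did not overlap. Their summed level was 262, 137, 96.8, 141 and 196 CPM in *Fezf2+ve* libraries 1 to 5 and 4765, 3344, 5479, 13522 and 3693 CPM in *Fezf2−ve* libraries. The ratio within an animal was 18.2 to 95.8. *Ptprc* had the most reads, with 1390 of its 1416 *Fezf2−ve* reads in animal 4, where it made up 10759 of the 13522 CPM. None of the 22 markers was at 0 in all libraries, and *Trem2* and *Sall1* were at 0 in the 5 *Fezf2+ve* libraries. The part of microglial RNA in the values of the lysosomal genes was not tested.

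Of 7 red cell genes, 6 were tested, and all 6 had an unadjusted p under 0.05 with a higher level in *Fezf2−ve* IT-PNs (median log2 fold change 4.01). *Hbb-bs* had the most reads, with 40, 5, 0, 0 and 0 in *Fezf2+ve* and 225, 112, 8, 20 and 0 in *Fezf2−ve* libraries, and near-identical globin copies share their reads. Their summed level was higher in the *Fezf2−ve* library of 5 of 5 animals. Among the *Fezf2−ve* libraries it was highest in animal 1 (6037 CPM) and lowest in animal 5 (11.1 CPM), and it was 0 in the *Fezf2+ve* libraries of animals 4 and 5. Among 8 markers of perivascular macrophages, 2 were tested, 0 had an unadjusted p under 0.05, and *Lyve1*, *Cd163* and *Cbr2* were at 0 in all libraries, while *F13a1*, with the most reads, had 8 reads in each type.

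No marker in the remaining lists had an unadjusted p under 0.05 in either direction. The median log2 fold change was -1.70 over 7 tested astrocyte markers, with *Gfap* at 0 reads and *Slc1a2* as the gene with the most reads (947 in *Fezf2+ve*, 870 in *Fezf2−ve*). It was -0.40 over 7 oligodendrocyte markers, -1.12 over 5 markers of oligodendrocyte precursors, led by *Vcan* (901 and 107 reads), and -0.50 over 3 endothelial markers, led by *Flt1* (15 and 11 reads). Of the 7 interneuron markers 0 passed the filter, and the one with the most reads, *Gad2*, had 1 and 5. *Cst3* is also made by astrocytes, whose markers summed to 649 to 5461 CPM in *Fezf2+ve* and 55.5 to 6239 CPM in *Fezf2−ve* libraries and were higher in *Fezf2−ve* in 1 of 5 animals. The part of astrocyte RNA in the values of *Cst3* was not tested.

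**Figure D3:**
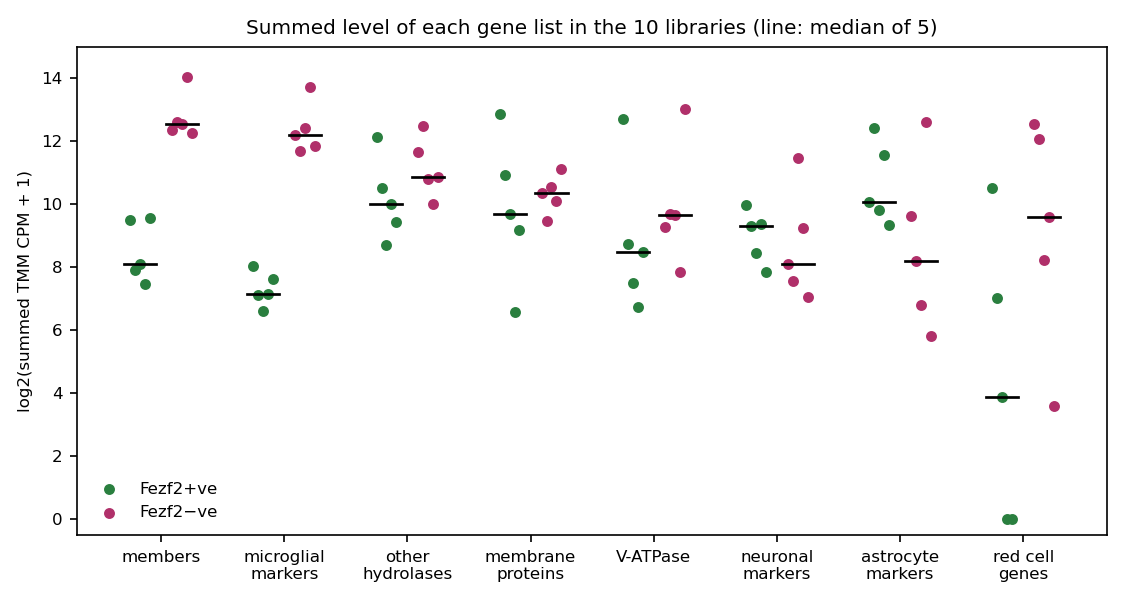
Summed level of gene lists as log2(summed TMM CPM + 1) in the 5 *Fezf2+ve* (green) and 5 *Fezf2−ve* (magenta) libraries, each point a library and each line the median of 5. The lysosomal members (177 to 754 against 4971 to 16835 CPM) and the microglial markers (96.8 to 262 against 3344 to 13522 CPM) did not overlap between types, while the other hydrolases, membrane proteins, V-ATPase subunits, neuronal and astrocyte markers and red cell genes did.

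The rest of the lysosomal pathway was described by 141 further genes in 8 lists, of which 80 were tested. With the block 0 of the 80 had an FDR at or below 0.1, 5 had an unadjusted p under 0.05 with a higher level in *Fezf2−ve* and 1 with a lower level, and the median log2 fold change was 0.48. Of these 5, *Man2b1*, *Laptm5* and *Mitf* passed the filter through *Fezf2−ve* libraries only. They reached 10 CPM in 0 *Fezf2+ve* libraries and in 3, 5 and 4 *Fezf2−ve* libraries, and *Lrp1* did so in 0 and 4. Such genes had to come out higher in *Fezf2−ve*, so the pathway counts and the results of these genes are likewise a description. The calls were 3 without the block, among them *Laptm5* and *Gusb*, and 3 with DESeq2, among them *Laptm5* and *Laptm4b*. *Gusb* was named after its values were seen, and 525 of its 530 *Fezf2−ve* reads came from animal 2.

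Among the 44 other hydrolases and activators, 30 were tested, 2 had an unadjusted p under 0.05 with a higher level in *Fezf2−ve*, *Man2b1* among them, and the median log2 fold change was 0.22. *Man2b1*, an alpha-mannosidase, had 0 reads in *Fezf2+ve* libraries and 1, 3, 9, 0 and 3 in *Fezf2−ve* libraries, at least 4.36-fold higher against the floor of 3 reads over the type. *Manba*, a beta-mannosidase, went the other way, at -1.39 on the log2 scale (standard error 1.51, exact permutation p = 0.5 for the paired levels, two-sided), which did not exceed the spread between animals, and at -0.68 without animal 1, -0.72 without animal 2 and -2.35 without animal 4. The summed level of these hydrolases overlapped between the types (415 to 4477 against 1022 to 5817 CPM). It was the larger in *Fezf2−ve* in 3 of 5 animals, compared with 5 of 5 for the 9 members, and this contrast between the lists was not tested.

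Of the 9 other widely expressed or leukocyte cathepsins, 4 were tested, with a median log2 fold change of 0.98 and 0 at an unadjusted p under 0.05. *Ctsa*, the protective protein of beta-galactosidase, was higher in the *Fezf2−ve* library of 5 of 5 animals, on 5 against 29 reads (log2 fold change 1.83, standard error 1.41, adjusted p = 0.998 by edgeR with Benjamini-Hochberg adjustment, 1.05 without animal 3 and 2.46 without animal 1). *Ctsg* and *Ctsw* had 0 reads, as did all 8 placental cathepsin genes. Of the 13 further protease inhibitors 1 was tested, *Spink2*, at a log2 fold change of 0.87, and 7 had 0 reads. None of the 7 genes of MHC class II, whose invariant chain is a substrate of cathepsin S, passed the filter, and 4 of them had 0 reads, in libraries where *Ctss* reached 1886 CPM.

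Of 26 lysosomal membrane proteins and transporters, 18 were tested, 2 had an unadjusted p under 0.05 with a higher level in *Fezf2−ve* and 1 with a lower level, and the median log2 fold change was 0.47. *Laptm5* had 1, 1, 1, 0 and 0 reads in *Fezf2+ve* and 24, 15, 50, 6 and 22 reads in *Fezf2−ve* libraries. Its ratio of pooled CPM was 31.9 (95% counting interval 10.6 to 157, exact binomial), with no overlap between types (adjusted p = 0.998 by edgeR with Benjamini-Hochberg adjustment). *Grn*, the progranulin gene, had 12 reads in *Fezf2+ve* libraries, all in animal 5, and 24, 6, 28, 11 and 6 in *Fezf2−ve* libraries (log2 fold change 4.46, standard error 1.83, adjusted p = 0.998 by edgeR with Benjamini-Hochberg adjustment). This value was 3.89 without animal 3, 6.83 without animal 5 and 2.44 without the block. In the other direction, *Laptm4b* had 835, 82, 75, 0 and 52 reads in *Fezf2+ve* and 15, 1, 1, 3 and 18 in *Fezf2−ve* libraries. Of all its reads, 77.2% came from the *Fezf2+ve* library of animal 1. The log2 fold change of *Laptm4b* was -4.16 (standard error 1.90, adjusted p = 0.998 by edgeR with Benjamini-Hochberg adjustment). It was -3.16 without animal 1 and -5.23 without animal 4.

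Of 19 subunits of the V-ATPase, the proton pump that acidifies lysosomes, 17 were tested, and 0 had an unadjusted p under 0.05. Their median log2 fold change was 0.43. *Atp6v1g1* (1.45, standard error 1.04) and *Atp6ap1* (1.58, standard error 1.44) had the smallest p of the subunits higher in *Fezf2−ve* in at least 4 animals, and *Atp6v1b2* (-0.98, standard error 1.27) and *Atp6v1f* (-0.95, standard error 1.43) of those lower in as many. Leaving out any 1 animal gave values of 1.38 to 1.66 for *Atp6v1g1* and -1.46 to -0.55 for *Atp6v1f*. Without animal 2, which gave 65 of the 80 *Fezf2−ve* reads of *Atp6ap1*, that of *Atp6ap1* was 0.72 and that of *Atp6v1b2* -0.22 (-1.31 without animal 5), and without animal 1 that of *Atp6ap1* was 2.70. Of 15 genes for sorting and regulation, 10 were tested (median log2 fold change 0.90), and 1 had an unadjusted p under 0.05. That gene was *Mitf*, a transcription factor of the TFEB family, with 0, 0, 1, 0 and 2 reads in *Fezf2+ve* and 8, 0, 40, 3 and 59 in *Fezf2−ve* libraries, a ratio of pooled CPM of 30.0 (95% counting interval 9.99 to 148, exact binomial, adjusted p = 0.998 by edgeR with Benjamini-Hochberg adjustment). *Lrp1*, an endocytic receptor, had 3 against 14 reads, a ratio of 3.81 (95% counting interval 1.06 to 20.7, which leaves out the spread between animals). Its log2 fold change of 1.37 lay within that spread (standard error 1.70, exact permutation p = 0.3125 for the paired levels, two-sided), and it was 0.72 without animal 1 and 2.21 without animal 5. *Tfeb* itself had 1 read in all libraries and *Tfe3* had 0.

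**Figure D4:**
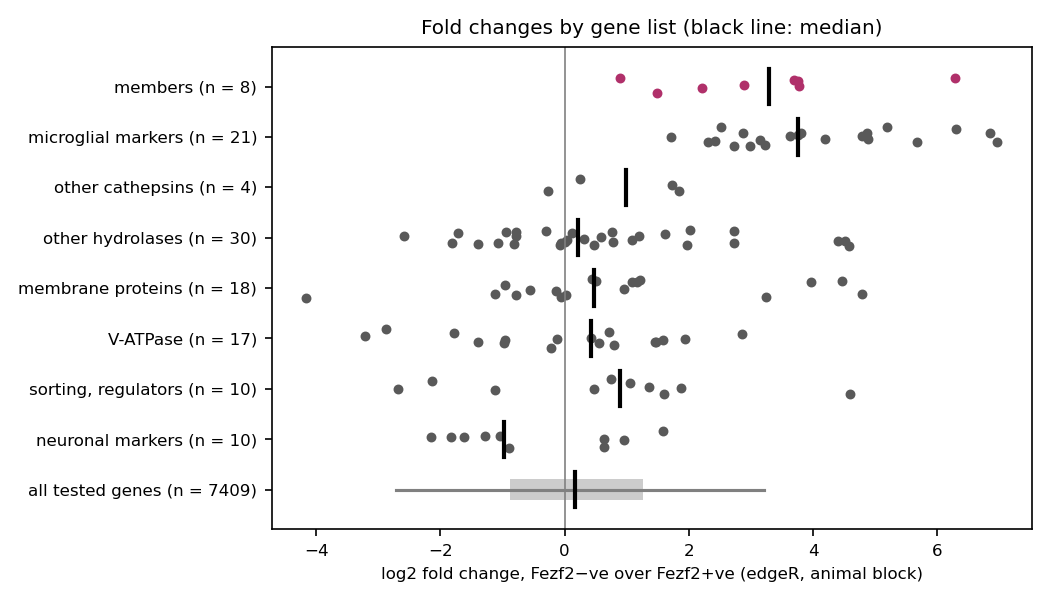
Fitted log2 fold change (*Fezf2−ve* over *Fezf2+ve*, edgeR with the animal block) of each tested gene by list, with the median as a black line; for all 7409 tested genes the box spans the quartiles and the line the 5th to 95th percentile. Medians were 3.29 for the members, 3.75 for the microglial markers, 0.22 for the other hydrolases and 0.16 for all tested genes.

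The tested genes outside the members with the level profile most like that of *Ctss*, by the mean absolute difference of log2(TMM CPM + 1) over the 10 libraries, were *Med12l* (1.09), *P2ry12* (1.33), *Csf1r* (1.73), *Tyrobp* (1.83) and *Zfhx3* (1.87), where the median over all tested genes was 4.70. Because they were picked by their levels, that they differ between the types as *Ctss* does follows from the choice. Of the 5, *P2ry12*, *Csf1r* and *Tyrobp* belong to the microglial markers. *P2ry12* lies within the *Med12l* locus, and a read over several genes can be counted on each. *Med12l* had 406, 33, 116, 54 and 58 reads in *Fezf2−ve* libraries 1 to 5, and *P2ry12* had 388, 23, 76, 20 and 11. Whether these are the same reads was not tested, so *Med12l* and *P2ry12* cannot be taken as separate neighbours. *Tyrobp* had 1 read in *Fezf2+ve* libraries and 27, 47, 51, 73 and 19 in *Fezf2−ve* libraries. *Csf1r* had 0, 2, 0, 0 and 3 reads in *Fezf2+ve* and 51, 45, 119, 28 and 534 in *Fezf2−ve* libraries, so that animal 5, the lowest for *Ctss* among the *Fezf2−ve* libraries, was the highest for *Csf1r*.

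Nearest to *Cst3* were *Ldlrad4* (1.65), *Klf13* (1.69) and *Epb41l2* (1.72), with a median of 7.05 over all tested genes. Of these, *Klf13* varied far more than *Cst3*, from 42 to 6510 reads among the *Fezf2−ve* libraries. Nearest to *Ctsd* were *C1qc* (1.15), *Heph* (1.33) and *Macf1* (1.44), with a median of 4.26. *C1qc*, a complement gene of microglia, had 65, 83, 274, 16 and 7 reads in *Fezf2−ve* libraries, where *Ctsd* had 56, 91, 268, 15 and 4, a likeness by which it was picked.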

How the data were processed

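RNA of 5 *Fezf2+ve* and 5 *Fezf2−ve* sorted samples was sequenced. The authors split the reads by inline barcode with sabre (the labels name bcl2fastq 1.8.4), trimmed them, mapped them to mm10 (GRCm38) with TopHat2 2.1.1 and counted them with bedtools 2.26.0, and the deposited tables hold raw read counts on genes and on ERCC transcripts. The deposited table of the authors' own DESeq2 comparison, with fold changes, scores and p-values, was not used. Strand use is not given in the sources used here, and a read over several genes can be counted on each.

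A filter of 10 CPM or more in 2 or more libraries left 7409 of 24453 genes. These were scaled by TMM and compared by edgeR's quasi-likelihood test (edgeR 4.0.16, R 4.3.3) with terms for the animal (the block) and the type. Benjamini-Hochberg adjustment ran over all tested genes, with a threshold of 0.1. Standard errors were derived from the F statistic. Single levels were compared by an exact permutation of the 5 paired differences (two-sided, smallest p 0.0625). DESeq2 1.42.0, Python 3.11.15, numpy 2.4.6, pandas 2.3.3, scipy 1.17.1 and matplotlib 3.10.9 were used for the rest. The fits were tested on simulated data in which 200 genes were given a log2 change of 3. All genes shared 1 dispersion and no effect of the animal was simulated, so spread that differs by gene and pairing were not covered. At the common dispersion of these data (1.41), edgeR with the block called 0 of the 200 genes, and edgeR without it called 18. DESeq2 called 110 of them and also 61 genes made equal.

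Libraries of 1 animal were paired because the labels say that the cells of an animal were split into both types, and the labels number the libraries. The deviations of the libraries of an animal from the type means had Pearson correlations of 0.097, -0.007, 0.061, 0.021 and -0.027 across genes, which are not independent replicates. Libraries of a type shared the same count in 5.39 to 8.77% of detected genes, so no library was a copy of another.

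The 9 members and the lists were chosen with earlier results of these data known. Of each pathway list, the named genes are up to 2 in each direction with the smallest p among genes with 1 direction in at least 4 of 5 animals. Of each cell type list the gene with the most reads is named, and the genes nearest to *Ctss* (5), *Cst3* (3) and *Ctsd* (3) by level; genes at 0, and *Slc17a7*, *Tubb3*, *Trem2*, *Sall1*, *Spink2*, *Tfeb* and *Gusb*, are named beside these. Not every gene picked by these rules is reported here. Floors of 3 reads are per library for single values and per type for lower bounds. Positions are from GENCODE, and promoters, found for 8 of the 9 members, from the RefSeq table.

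Alternatives were a fit without the block, DESeq2, DESeq2's size factors, unscaled library sizes, no filter or a stricter one, the legacy quasi-likelihood method, downsampling, an FDR of 0.05, a pseudocount of 10 and leaving out each animal. Scaling to ERCC reads and the alternatives for the pathway and microglial lists were chosen after seeing the data.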

Additional observations from a re-analysis of the deposited data

Results flagged for a closer look

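In 4 of 54 groups of 5 libraries, 1 library lay far from the others of its type. Chance puts about 1 in 20 such groups there. For the 9 lysosomal genes, the summed level was 14.04 on the log2 scale in the *Fezf2−ve* library of animal 4, and the nearest *Fezf2−ve* library had 12.62. *Lgmn* gave 1852 reads of that library. For the genes of sorting and regulation, the *Fezf2+ve* library of animal 4 was low at 6.16, with the nearest at 6.80. For the protease inhibitors, the *Fezf2+ve* library of animal 2 was high at 5.33, with the nearest at 4.12. For the interneuron markers, the *Fezf2+ve* library of animal 5 stood at 2.83 and the other 4 at 0, a difference that rests on 1 read.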

How the results depend on the processing

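All fitted fold changes of the 8 tested members were positive in each alternative that could be fitted (13 each, and 12 for *Ctsz*, which the stricter filter removed). The number of all tested genes called went from 0 to 279 without the replicate block and to 98 with DESeq2, the number of members called from 0 to 2 and 4, and the number of pathway genes outside the members called from 0 to 3 and 3. The block changed no other call of a member. Members with an unadjusted p under 0.05 numbered 5, but 2 with the legacy quasi-likelihood method, 3 after downsampling, and 2 to 4 when 1 animal was left out. Pathway genes with such a p numbered 5, but 10 without the block, and 3 to 5 with each animal left out. Microglial markers with such a p numbered 13, and 8 to 12 with each animal left out. The cause of these changes was not tested, apart from the fewer samples and reads that leaving out an animal and downsampling bring.

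The median log2 fold change of the tested members was 2.80 to 3.54 with each animal left out, and the median over animals of the log2 ratio of the summed level, 4.45, was 3.75 to 4.51. With 4 animals, 4 to 6 members were higher in *Fezf2−ve* in every animal and 3 to 4 did not overlap. With a floor of 3 reads, *Ctsz*, *Ctsl* and *Cd68* rest on few reads in both types and *Hexa* in *Fezf2+ve*, and all p-values rest on these 5 animals.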
